A study of Mus musculus with 2 samples.

Results

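The 42 genes described here encode the subunits of the transcription factor AP-1 and its relatives of the Atf, Batf and Maf families, together with immediate early genes that cells switch on within minutes of a stimulus. They were taken from a fixed list of symbols, all 42 of which were found among the 21883 protein-coding genes on chromosomes 1 to 19, X and Y in RefSeq (GRCm38.p6, the assembly behind mm10). The measurement was H3K27ac, the acetylated lysine 27 of histone H3 that marks promoters and enhancers in use, mapped by CUT&Tag, in which an antibody brings a transposase to the marked chromatin. Colonic macrophages, sorted as Siglec-F-negative, Ly6C-low and CD64-positive cells, came from male C57BL/6 mice of 11.1 weeks. The Tle4cKO mice had the genotype Tle4f/f Lyz2-Cre, so that the corepressor gene Tle4 is floxed and Cre is driven by the promoter of the myeloid lysozyme gene. The WT mice carried Lyz2-Cre with no floxed allele, so both genotypes express Cre. Cells of 4 mice were pooled per genotype into 1 library, which leaves no replicate and no test between genotypes.

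AP-1 is a dimer of a Jun protein with a Fos, Atf or Batf protein, or of 2 Jun proteins, joined through a leucine zipper next to the basic region that contacts DNA. In macrophages AP-1 responds to Toll-like receptors, cytokines and stress kinases and acts at enhancers beside lineage factors, while the Egr, Ier, Klf and Nr4a genes are induced by the same kinases and the Dusp, Btg and Zfp36 products damp the signal or the transcripts. Large Maf proteins such as c-Maf shape the resident macrophage state, and the small Maf proteins Maff, Mafg and Mafk lack an activation domain and act as partners of the Nrf and Bach factors.

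Each library was deposited as a list of peak summits, 1-bp positions with a score taken to be a p- or q-value on the −log10 scale. The Tle4cKO list held 2350 summits on these chromosomes and the WT list 10474, with median scores of 4.05 and 4.47. Read depth is unknown, so scores rank summits within a list and a missing summit means only that none was called. In pooled cells, fewer cells with the mark and less of the mark in each cell cannot be told apart. Neither list had a summit within 10 kb of Tle4 or of Lyz2, so the summits give no check of the genotype. Of 15 macrophage marker genes, the Tle4cKO list had a summit within 10 kb of 1, Ptprc (4.45), and the WT list of 9, which included Fcgr1, the gene of the sorted antigen CD64, with a gene-end score of 5.49. These shares were 6.67% and 60.0%, against 11.6% and 39.2% of all protein-coding genes. At gene ends, 0 of the 15 had a Tle4cKO summit and 4 (26.7%) a WT summit, against 6.19% and 22.6% of all genes. Among 36 markers of T cells, B cells, neutrophils, eosinophils, epithelium, fibroblasts and endothelium, 1 had a Tle4cKO summit within 10 kb (2.78%) and 11 a WT summit (30.6%). Among the 36, the endothelial gene Cdh5 scored 7.48 in WT. Pecam1, counted here with the endothelial markers, scored 6.23 in both lists, which in Tle4cKO was above Ptprc. Any part of such cells in the results was not tested. At gene ends 0 of the 36 had a Tle4cKO summit and 3 a WT summit (8.33%, against 22.6% of all genes). The 3 were Cd4 (2.80), Cd79b (1.93) and Kdr (4.33). The Cd4 summit lay 183 bp from an end of Gpr162.

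The promoters of 7 members are shown: the 4 that score highest at their ends in WT, and the 3 that hold the letters of a cyclic AMP response element (CRE). Each sequence is the 250 bases before the RefSeq transcription start on GRCm38.p6. Capitals mark the bases within 10 bp of the WT summit in Atf4, and in Maff, Dusp1 and Btg2 the motifs described with the base composition.
Atf4 (chr15:80254934-80255183, plus strand): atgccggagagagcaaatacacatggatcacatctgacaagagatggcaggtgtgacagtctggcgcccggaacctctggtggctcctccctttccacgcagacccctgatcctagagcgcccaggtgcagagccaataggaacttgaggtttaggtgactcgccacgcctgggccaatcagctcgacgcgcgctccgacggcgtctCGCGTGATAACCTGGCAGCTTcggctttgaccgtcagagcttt
Atf7 (chr15:102625465-102625714, minus strand): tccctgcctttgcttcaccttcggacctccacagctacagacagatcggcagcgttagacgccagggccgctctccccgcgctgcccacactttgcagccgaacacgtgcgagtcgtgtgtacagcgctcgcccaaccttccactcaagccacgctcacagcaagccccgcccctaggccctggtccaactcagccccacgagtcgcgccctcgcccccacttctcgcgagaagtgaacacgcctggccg
Batf (chr12:85686470-85686719, plus strand): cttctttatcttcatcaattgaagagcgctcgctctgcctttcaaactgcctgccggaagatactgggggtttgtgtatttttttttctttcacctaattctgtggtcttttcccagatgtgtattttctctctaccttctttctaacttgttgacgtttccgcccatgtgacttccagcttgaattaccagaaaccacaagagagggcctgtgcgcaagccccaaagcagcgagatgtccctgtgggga
Klf4 (chr4:55532476-55532725, minus strand): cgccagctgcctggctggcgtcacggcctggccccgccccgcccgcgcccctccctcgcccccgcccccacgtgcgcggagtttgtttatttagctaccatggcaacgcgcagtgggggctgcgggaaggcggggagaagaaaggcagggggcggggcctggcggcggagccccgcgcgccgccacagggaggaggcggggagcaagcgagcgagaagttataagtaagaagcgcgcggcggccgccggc
Maff (chr15:79347270-79347519, plus strand): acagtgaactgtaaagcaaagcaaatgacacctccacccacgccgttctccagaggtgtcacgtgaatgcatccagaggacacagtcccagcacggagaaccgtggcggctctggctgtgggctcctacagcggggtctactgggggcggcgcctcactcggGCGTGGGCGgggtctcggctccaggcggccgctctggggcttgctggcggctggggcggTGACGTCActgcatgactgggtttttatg
Dusp1 (chr17:26508473-26508722, minus strand): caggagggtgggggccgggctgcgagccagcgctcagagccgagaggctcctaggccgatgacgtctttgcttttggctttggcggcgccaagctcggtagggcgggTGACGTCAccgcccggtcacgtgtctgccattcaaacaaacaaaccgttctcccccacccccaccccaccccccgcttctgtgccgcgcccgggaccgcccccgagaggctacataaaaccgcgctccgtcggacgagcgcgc
Btg2 (chr1:134079156-134079405, minus strand): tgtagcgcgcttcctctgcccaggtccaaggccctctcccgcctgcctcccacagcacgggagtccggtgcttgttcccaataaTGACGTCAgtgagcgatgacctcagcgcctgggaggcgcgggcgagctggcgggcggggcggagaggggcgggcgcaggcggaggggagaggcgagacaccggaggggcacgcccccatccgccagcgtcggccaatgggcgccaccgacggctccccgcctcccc

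No member had a summit at a gene end in Tle4cKO, while 15 did in WT. A gene end here is the span within 1 kb of either outer end of the gene. In Tle4cKO, 0 of the 42 genes were marked in this way, against 6.19% of all protein-coding genes. No interval was computed for a count of 0. Whether such a count lies below the share of all genes by more than counting error was not tested. In WT, 15 of 42 were marked (35.7%, exact Clopper-Pearson 95% interval 21.6 to 52.0%, counting error only), against 22.6% of all protein-coding genes. Of these 15 members 0 also had a gene-end summit in Tle4cKO, against 24.7% of all genes with one in WT. The 15 were Fosl2, Jun, Atf1, Atf2, Atf4, Atf7, Batf, Egr1, Ier3, Ier5, Klf4, Klf6, Klf10, Nr4a2 and Nr4a3.

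Within 10 kb of the gene, 3 members were marked in Tle4cKO and 24 in WT. The Tle4cKO share was 7.14% (95% interval 1.5 to 19.5%), against 11.6% of all genes, and the WT share was 57.1% (41.0 to 72.3%), against 39.2% of all genes. Of the 24 members with a WT summit, 3 also had a Tle4cKO summit (12.5%, 2.66 to 32.4%), against 27.6% over all genes. The 3 genes were Batf, Ier3 and Nr4a1, and 0 members had a Tle4cKO summit alone, against 0.832% of all genes. When each summit was counted only for its nearest gene, Nr4a1 dropped out, which left 2 members in Tle4cKO (8.69% of all genes) and 23 in WT (30.3% of all genes). By the 10 kb rule, and not the nearest-gene rule, the remaining 18 of the 42 members had no summit in either list. They are the members outside the 24 marked in WT. Their comparison with all genes is therefore that of the WT share above, apart from the 0.832% of all genes marked in Tle4cKO alone. Across the members' windows lay 3 Tle4cKO summits, with scores from 2.66 to 14.5, and 42 WT summits, with scores from 2.08 to 13.9 and a median of 4.30. All 3 Tle4cKO summits had a WT summit within 500 bp, as did 79.7% of all Tle4cKO summits. Of the 42 WT summits, 3 had a Tle4cKO summit within that distance, against 18.0% of all WT summits.

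**Figure D1:**
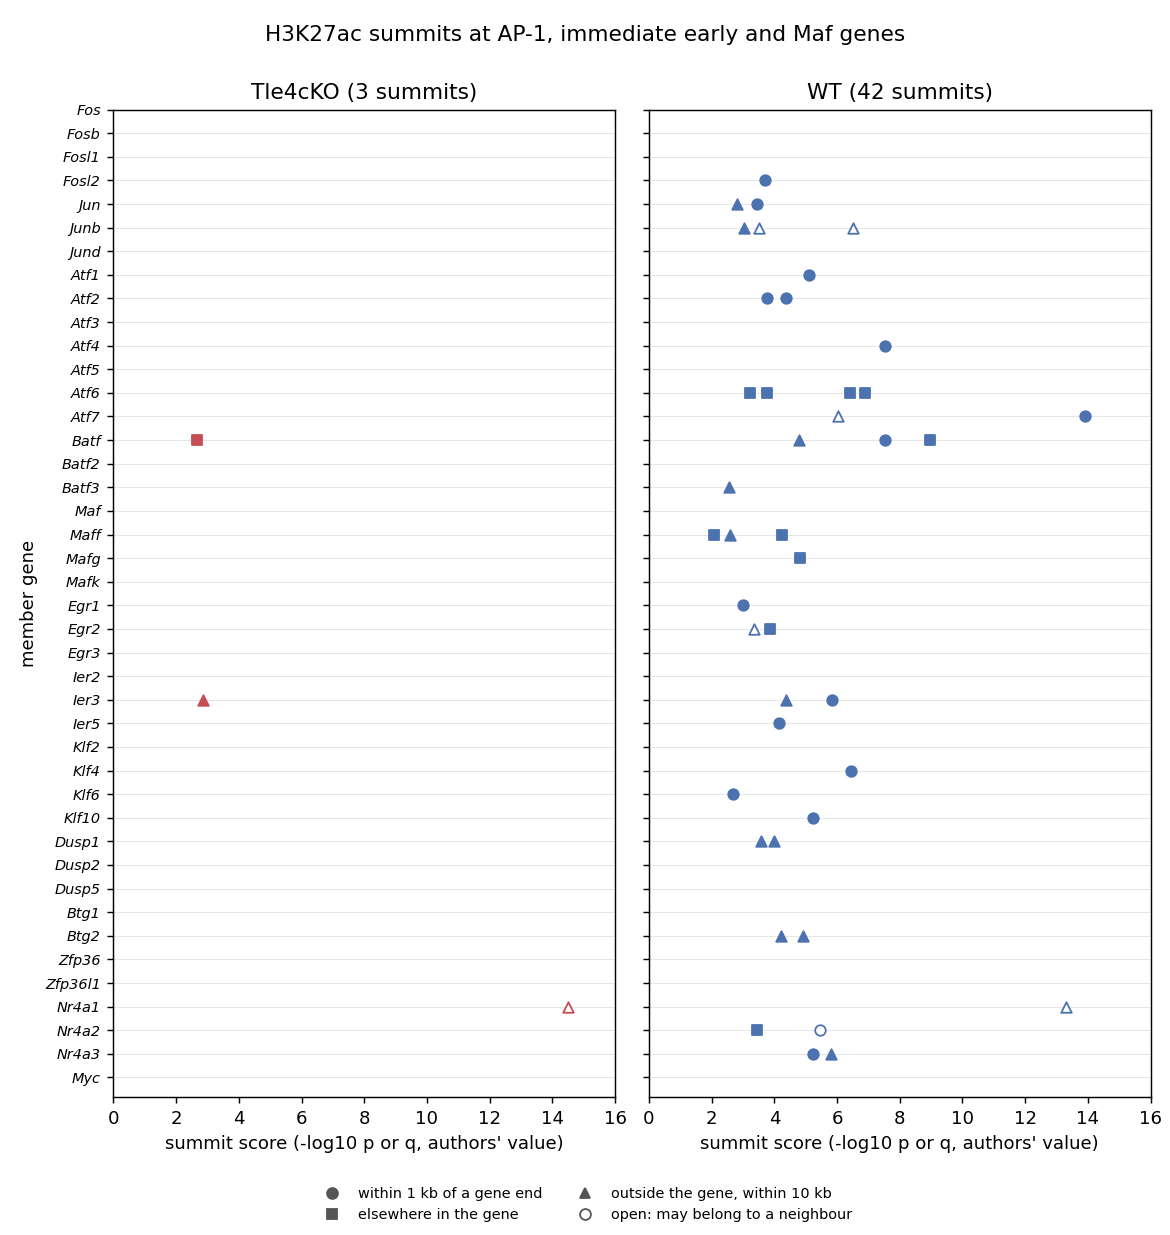
Score of every summit within 10 kb of each of the 42 member genes (rows) in Tle4cKO (left) and WT (right), as the authors' −log10 value. Symbols give the location and open symbols a summit that may belong to a neighbouring gene. The left panel holds 3 summits and the right panel 42, and 18 rows are empty in both.

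The low Tle4cKO count was set beside that of genes with like WT scores, because high-scoring WT genes were marked in Tle4cKO more often. The highest gene-end score of the 15 marked members in WT had a median of 5.22, against 5.19 over all genes with a WT gene-end summit. With a WT gene-end score under 5, 0 of 6 members had a Tle4cKO gene-end summit, against 11.5% of 2307 genes. With a WT score from 5 to under 10, 0 of 8 members had one, against 30.0% of 2197 genes. At a score of 10 or more, the 1 member, Atf7, had none, against 67.3% of 446 genes that had one. These shares describe 2 libraries and were not tested.

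**Figure D2:**
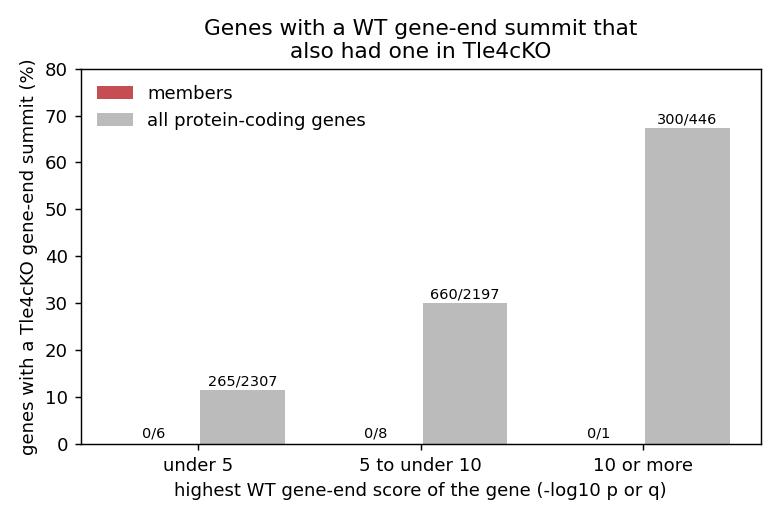
Share of genes with a WT gene-end summit that also had a Tle4cKO gene-end summit (percent), by the gene's highest WT gene-end score, for the members and for all protein-coding genes. Numbers over the bars are genes with both over genes with a WT summit, and the members are at 0 in all 3 score ranges.

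Among the Fos and Jun genes, whose products form the classical AP-1 dimer, 0 of 7 had a Tle4cKO summit within 10 kb, against 11.6% of all genes, and 3 (42.9%) had a WT summit, against 39.2% of all genes. These shares are near the background, and each family is too small for its count to stand apart from it. Fosl2, which encodes the Fos protein Fra-2, had no Tle4cKO summit closer than 23816 bp to the gene and a WT summit of 3.71 at position 32135775 of chromosome 5, 697 bp before its start. Jun had WT summits of 3.46 and 2.82, which lay 581 and 1253 bp before its start. The first of these was 486 bp from the end of the noncoding gene Junos, so the summits may belong to either. Junb, whose product can restrain Jun, had 3 WT summits and none in Tle4cKO. The one nearest to it (3.02) lay 1032 bp before its start, 32 bp outside the gene-end window. The others may be those of neighbours: a summit of 6.52 lay inside Prdx2, 155 bp from an end of that gene, and one of 3.51 lay closer to Hook2 than to Junb. Fos, Fosb, Fosl1 and Jund had no summit within 10 kb in either list, and the nearest WT summits lay between 18668 bp (Fos) and 62143 bp (Jund) from them.

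Of the 7 Atf genes, 0 had a Tle4cKO summit within 10 kb, against 11.6% of all genes. In WT, 5 had a summit there (71.4%, against 39.2% of all genes), 4 of them at a gene end (57.1%, against 22.6%). Atf7, a partner of Jun that is activated by stress kinases, had the highest score of any member at its own end in WT, 13.9, which placed it among the top 2.01% of WT summits. It lay 60 bp after the start, at position 102625404 of chromosome 15, and the nearest Tle4cKO summit was 299327 bp away. A further WT summit in its window (6.04) lay inside Tarbp2 and may be that gene's. Atf4, the main effector of the integrated stress response, had 1 WT summit of 7.53, 33 bp before its start and so within the printed promoter, and its nearest Tle4cKO summit lay 21016 bp from it. Atf1, a relative of the cyclic AMP response factor CREB, had a WT summit of 5.11 placed 333 bp before its start. Atf2, a close relative of Atf7, had WT summits of 4.37 and 3.78, 183 and 841 bp after its start, and the first lay 48 bp from an end of the noncoding gene Gm10822. Atf6, a membrane-bound sensor of unfolded protein in the endoplasmic reticulum, differed from the others in having 4 WT summits inside the gene and none at its ends. Their scores were 6.43, 6.89, 3.22 and 3.77, and the last lay 1075 bp from the outer end and 320 bp from an end of the noncoding gene Gm9929. Atf3, which is induced by stress, and Atf5 had no summit in either list.

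Batf was the only member whose own gene was marked in both libraries. Its product pairs with Jun and recruits IRF4 or IRF8. In Tle4cKO the gene had 1 summit, which scored 2.66 (rank 1996 of 2350) and lay on chromosome 12 at 85705524. In WT it had 3: 7.52 at 401 bp after the start, 8.98 at position 85705653 and 4.80 beyond the far end of the gene. The Tle4cKO summit lay 129 bp from the WT summit of 8.98, inside the gene and 18804 bp after the start, with no other protein-coding gene within 41015 bp. The start of Batf was therefore marked in WT alone and the downstream region in both. Batf3, which type 1 conventional dendritic cells need, had a WT summit of 2.54 at 1418 bp before its start and none in Tle4cKO. Batf2 had none in either list.

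Within 10 kb, the Maf genes had 0 of 4 marked in Tle4cKO and 2 of 4 in WT, against 11.6% and 39.2% of all genes. Both were small Maf genes. Maff, which has 3 annotated starts, had WT summits of 2.08, 136 bp after the second of them, and 4.23, 41 bp after the third, and one of 2.60 lay 7975 bp before the gene. The first of these lay 1035 bp from the gene's outer end, so Maff is not counted at a gene end although it was marked at internal starts. Mafg had a WT summit of 4.83, 703 bp after its start and 906 bp from an end of the noncoding gene Gm17586. Maf itself and Mafk had no summit within 10 kb. The closest summits of the lists lay 53068 bp (Tle4cKO) and 52817 bp (WT) from Maf.

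**Figure D3:**
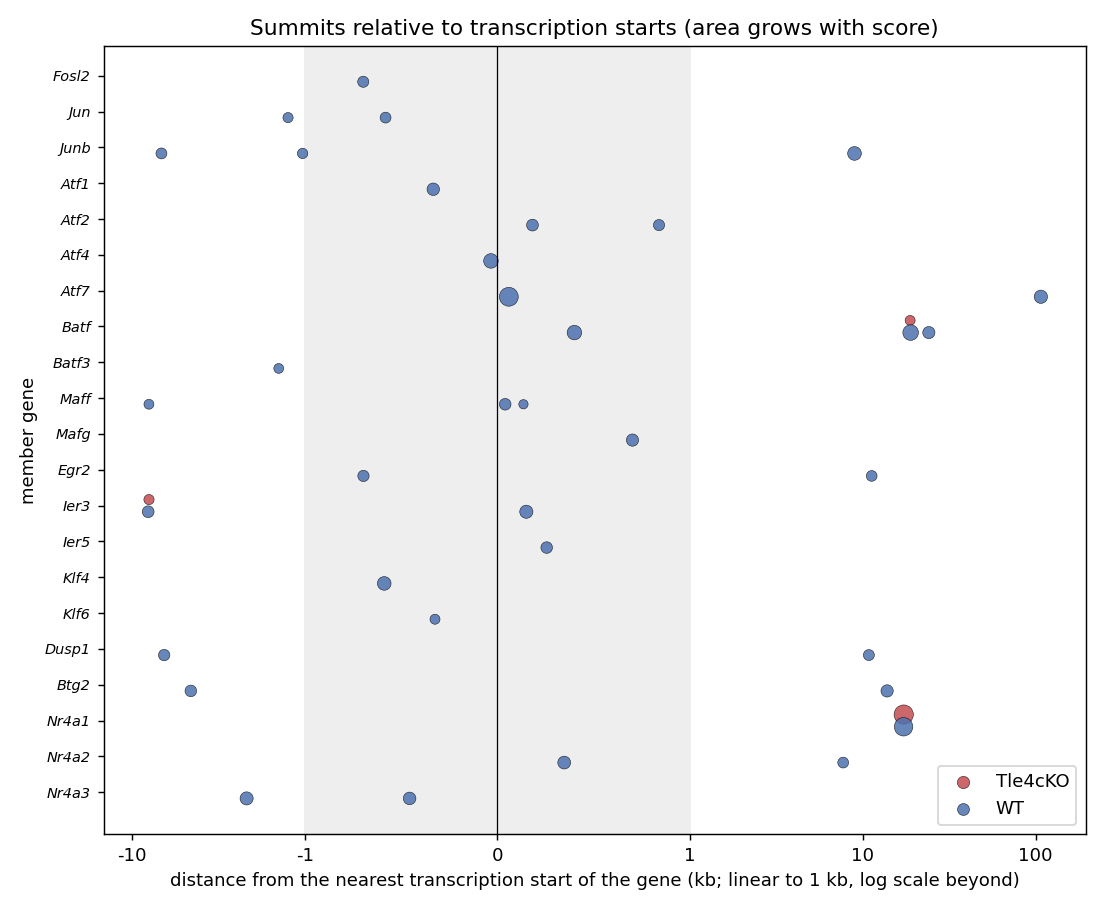
Distance of each summit from the nearest transcription start of the member gene (kb, negative before the start, linear to 1 kb and logarithmic beyond), for the members with a start in the promoter table and a summit in either list. Red points are Tle4cKO and blue points WT, with area growing with the score, and the grey band within 1 kb of the start holds WT points only.

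Among the zinc finger genes of the Egr and Klf families, 0 of 7 were marked in Tle4cKO within 10 kb, against 11.6% of all genes. In WT, 5 of the 7 were marked (71.4%, against 39.2% of all genes). Klf4, a factor of monocyte and macrophage differentiation, had the highest of these scores, 6.45, in a WT summit 588 bp before its start that also lay 353 bp from an end of the noncoding gene Gm12506. Klf10, which is induced by TGF-beta, had a WT summit of 5.22 at 194 bp from its end, and Klf6 one of 2.68 at 324 bp before its start. The nearest Tle4cKO summit to the Klf6 gene was 15954 bp away. Egr1, the prototype of growth factor response genes, had a WT summit of 3.01 at 321 bp from the gene. Egr2 had a WT summit of 3.86 inside the gene, 696 bp before an internal start, and a second of 3.35 that lay 250 bp from Ado and may be that gene's. Egr3 and Klf2 had no summit within 10 kb, and the nearest to Klf2, a factor that restrains inflammatory activation, lay 100291 bp (Tle4cKO) and 100195 bp (WT) from it.

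Ier3, an immediate early gene that regulates cell death, was the other member with a Tle4cKO summit not nearer to a neighbour. The Tle4cKO summit scored 2.85 at position 35813745 of chromosome 17, 7968 bp before the start, and the WT list had a summit of 4.38 at 86 bp from it. At this distance the summit was still nearer to Ier3 than to Flot1, which lay 9575 bp from it. At the Ier3 start itself, 151 bp inside the gene, only WT had a summit (5.85). Ier5 had a WT summit alone, of 4.16 at 257 bp after its start, and Ier2 had none, with the nearest WT summit 184505 bp away.

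The products of the 7 Dusp, Btg and Zfp36 genes end signals or destabilise transcripts. At gene ends, 0 of these genes had a summit in either list, against 6.19% (Tle4cKO) and 22.6% (WT) of all genes. Within 10 kb, 0 had a Tle4cKO summit, against 11.6% of all genes, and 2 (28.6%) a WT summit, against 39.2%. Dusp1, the phosphatase that inactivates p38 and JNK, had WT summits of 3.98 and 3.58 on either side, 6511 bp before the start and 7977 bp beyond the far end. Btg2, an antiproliferative factor that promotes removal of poly(A) tails, had WT summits of 4.20, 4567 bp before the start and 888 bp from an end of the noncoding gene Gm31974, and 4.90, 9552 bp beyond its far end. Dusp2 and Dusp5, phosphatases of the MAP kinases, Btg1, Zfp36, which encodes the mRNA decay factor tristetraprolin, and its relative Zfp36l1 had none. The closest WT summits to these 5 genes lay between 11827 bp (Btg1) and 58334 bp (Dusp5) away.

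The Nr4a genes encode orphan nuclear receptors that are induced as immediate early genes. Nr4a1 had the highest Tle4cKO score of any member window, 14.5 (rank 95 of 2350), and a WT score of 13.3 (rank 250 of 10474), at summits 29 bp apart. These summits lay 9314 bp (Tle4cKO) and 9285 bp (WT) beyond the far end of Nr4a1, and 192 and 221 bp from the autophagy gene Atg101, to which they may belong. Nr4a2 had no Tle4cKO summit and WT summits of 5.47, 348 bp after its start, and 3.45 inside the gene. The first lay inside the predicted gene LOC105244150, 321 bp from an end of it. Nr4a3 had WT summits of 5.81 and 5.24, 2174 and 456 bp before its nearest start, and no Tle4cKO summit closer than 38521 bp to the gene. Myc, the growth regulator, had none in either list, with the nearest WT summit 12419 bp and the nearest Tle4cKO summit 958479 bp away.

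The marked ends of the members were the starts of transcription. The promoter table gives starts for 33 of the 42 members (all but Fosl1, Atf6, Batf2, Maf, Egr1, Egr3, Ier2, Klf10 and Myc) and for 17491 protein-coding genes. Of the 16 WT gene-end summits of members, 14 belonged to genes with a known strand, and all 14 lay nearer the start than the far end, as did 4075 of 4291 such summits over all genes. Within 1 kb of any annotated start, 0 of 33 members had a Tle4cKO summit (no interval computed), against 6.92% of all genes in the table. In WT, 16 of 33 did (48.5%, 95% interval 30.8 to 66.5%), against 25.0% of all genes. The 16 add Maff, Mafg and Egr2, which were marked at internal starts, to 13 of the genes named above for their ends.

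**Figure D4:**
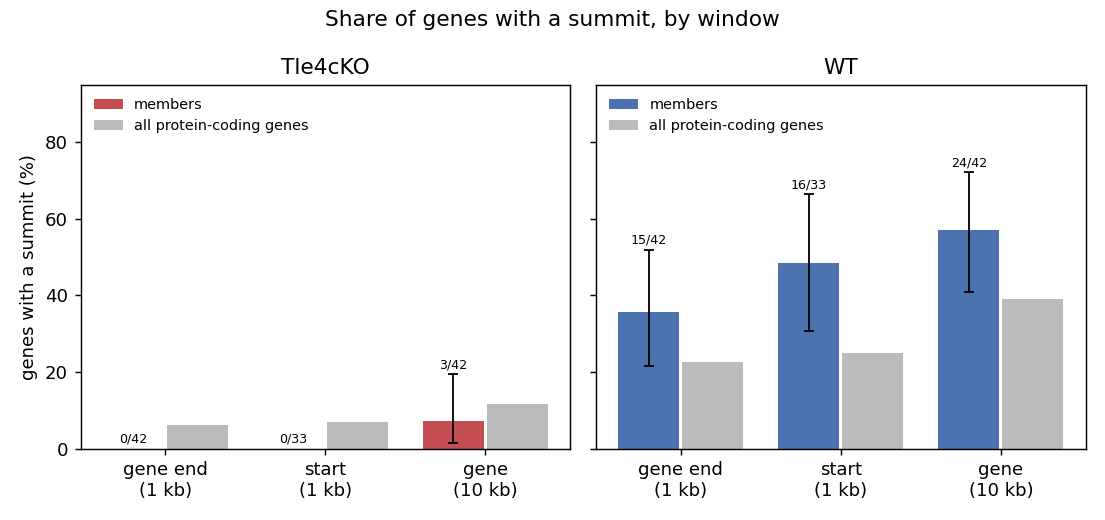
Share of member genes (coloured bars, left of each pair) and of all protein-coding genes (grey bars) with a summit at a gene end, within 1 kb of a transcription start and within 10 kb of the gene, in Tle4cKO (left panel) and WT (right panel). Error bars are exact 95% binomial intervals over genes, drawn where the count is above 0. Members lie below all genes in each Tle4cKO pair and above them in each WT pair.

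Gene length and list length bear on these shares. The members are short, with a median length of 6618 bp against 17170 bp for all protein-coding genes. Among the genes under 10 kb, the share with a summit within 10 kb was 3.57% (1 of 28) of members and 5.94% of all such genes in Tle4cKO, and 46.4% (13 of 28) of members and 24.8% of all such genes in WT. The WT list was also reduced to its 2350 highest summits, which score at least 6.37. The Tle4cKO list, and so its count of 0 members marked at an end, stayed the same. In WT the ends of 4 members were then marked: Atf4, Atf7, Batf and Klf4. This WT share of 9.52% stood against 7.51% of all genes, so at equal list length the members' WT share was near the background. Of these 4 members 0 had a Tle4cKO gene-end summit, against 43.9% of all genes with such a high WT summit.

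The base composition of the members' promoters was compared with that of all promoters. The 19 member starts with a WT summit within 1 kb had a median GC content of 61.3% and a CpG observed over expected ratio of 0.844, and the 21 starts without one had 66.7% and 0.830. Over all protein-coding genes, starts with a WT summit had 61.3% and 0.810, and starts without one 54.3% and 0.420. The medians of the unmarked member starts were thus above those of all unmarked starts, but the ratio of the Jund start (0.184) and of a start each of Maff (0.263) and Atf5 (0.375) was below 0.420. No test was made, and Maff, Egr2 and Atf5 each count with several starts.

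**Figure D5:**
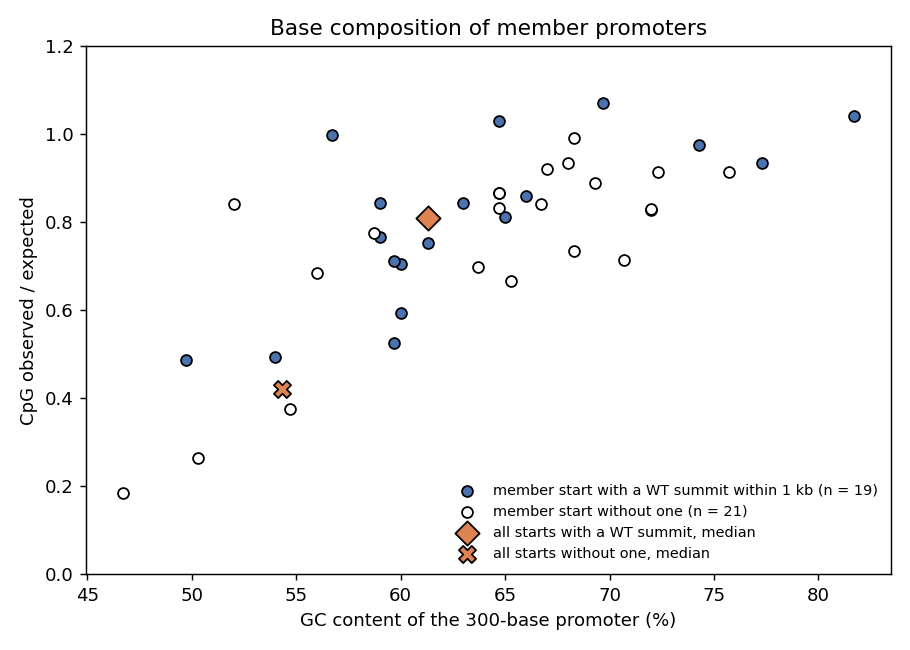
GC content (percent) and CpG observed over expected ratio of the 300-base promoters of the members, with a WT summit within 1 kb of the start (blue, n = 19) and without (white, n = 21). Orange symbols are the medians over all protein-coding genes. The unmarked member starts have a median of 66.7% and 0.830, against 54.3% and 0.420 over all unmarked starts.

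Motif letters were searched on both strands of the 300-base promoters. The CRE letters TGACGTCA, which are a palindrome and so match on both strands at once, were present in 3 of 40 member promoters (7.50%) and in 2.23% of 21262 promoters of protein-coding genes. They began 29 bases before a start of Maff, 143 before that of Dusp1 and 166 before that of Btg2. Maff had WT summits at its starts, whereas Dusp1 and Btg2 had summits only in their flanks, and none of these had a Tle4cKO summit. The AP-1 letters TGANTCA were found in 1 member promoter, that of Zfp36l1, and in 6.99% of all. The Egr letters GCGTGGGCG were found in 1, that of Maff, 88 bases before the same start, and in 0.828% of all. The Maf core TGCTGAC was in 0 of the members' promoters and 4.30% of all. For the serum response element, only 1 exact sequence of the CArG type was searched, and it was in 0 of the members' promoters and 0.0941% of all. Other CArG sequences and bases outside the 300-base promoters were not searched, and Egr1, Egr3 and Ier2 had no promoter to search. This 0 therefore cannot show whether members lack such an element. The long palindromic Maf site, which contains the AP-1 letters, was in 0 of either. A match is a run of letters and not a measured binding site.

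The kinases and factors that act upstream of these genes were counted in the same way. Of 29 such genes, 3 had a gene-end summit in Tle4cKO (10.3%, against 6.19% of all genes) and 18 in WT (62.1%, against 22.6%). Of these 18, 2 had both (11.1%, against 24.7%). Within 10 kb, 22 had a WT summit and 6 of these had both (27.3%), near the 27.6% over all genes. Mapk7, which encodes ERK5, had scores of 2.40 in Tle4cKO and 5.62 in WT. Braf (7.23) and Map2k1 (6.58), kinases of the MAP kinase cascade, had gene-end summits in WT alone. Mrtfb, a coactivator of serum response factor, had one in Tle4cKO alone (2.96), and within 10 kb it had summits in both lists (5.31 in Tle4cKO and 4.43 in WT).

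Relatives of the members were counted likewise. Of 20 other bZIP genes, 2 had gene-end summits in both lists and 6 in WT alone. Their shares of 10.0% in Tle4cKO and 40.0% in WT were both above those of all genes (6.19% and 22.6%). Of those with a WT summit 25.0% had both, against 24.7% over all genes. Xbp1, a factor of the unfolded protein response, had 2.87 in Tle4cKO and 5.33 in WT, and Crem, a cyclic AMP response factor, 2.96 and 4.55. Cebpg (5.33) and Nfe2l1 (4.19) were marked in WT alone. Of 34 relatives in the Egr, Ier, Klf, Dusp, Btg, Zfp36, Nab and Myc families, 1 was marked at its end in both lists, the RNA phosphatase gene Dusp11 (5.94 in Tle4cKO and 10.1 in WT), and 8 in WT alone, led by Klf7 (7.01) and Dusp22 (5.98). The shares were 2.94% in Tle4cKO and 26.5% in WT, against 6.19% and 22.6% of all genes. Of 25 other immediate early and stress response genes, 1 was marked at its end in both, Nfkbiz, which encodes a nuclear IkB protein (6.06 in Tle4cKO and 5.33 in WT), and 7 in WT alone, led by Rhob (5.58) and Bhlhe40 (5.51). The shares were 4.0% in Tle4cKO and 32.0% in WT, against 6.19% and 22.6% of all genes. Of those with a WT gene-end summit, 12.5% in this list and 11.1% among the 34 relatives had both, against 24.7% over all genes.

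Of 26 genes known as AP-1 or Maf targets in macrophages, 0 had a Tle4cKO gene-end summit, against 6.19% of all genes, and 6 (23.1%) a WT one, against 22.6% of all genes, a share near the background. They included Ptgs2, the inducible cyclooxygenase (5.36), and the chemokine gene Ccl3 (3.89), whose summit lay 477 bp from an end of Ccl4. Within 10 kb, 2 of the 26 had summits in both lists and 9 in WT alone. The shares of 7.69% in Tle4cKO and 42.3% in WT stood against 11.6% and 39.2% of all genes. Slc7a11, the cystine transporter gene, had 6.13 in Tle4cKO and 4.95 in WT at different places inside the gene. Tnf had 3.26 in Tle4cKO and 5.40 in WT, outside the gene and nearer to Lta, 4956 bp (Tle4cKO) and 4687 bp (WT) from an end of that gene, so these summits may be those of Lta.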

How the data were processed

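The data were H3K27ac CUT&Tag profiles of pooled colonic macrophages, 1 library per genotype. Per the submitters' processing notes, cutadapt 1.14 and Bowtie2 2.2.5 were used with the build mm10. The peak caller, any control library and the sequencing depth were not given in the sources used here. Each summit's deposited score was read as a −log10 p- or q-value from the layout of the list and its lowest values (1.37 in Tle4cKO and 1.35 in WT); which of these it is was not stated.

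Positions were counted from 1, and summits of chromosomes 1 to 19, X and Y were assigned with Python 3.11.15, numpy 2.4.6, pandas 2.3.3 and scipy 1.17.1 to RefSeq genes of GRCm38.p6 (1 kb around either outer end, or 10 kb around the gene). A summit may belong to a neighbour when it lies within 1 kb of an end of another protein-coding gene or no nearer to the member. Promoters came from RefSeq for the same assembly. The scripts were tested on simulated summits. The members and lists were chosen with earlier results of these data known. Every member with a summit is named, and other genes were taken from the 2 that scored highest in each class (both libraries, Tle4cKO alone, WT alone) of the other lists. The alternatives tried were wider and narrower windows, minimum scores, a WT list of equal length and assignment to the nearest gene. The gene table has no strand, so strands came from the promoter table. A gene of the other lists that this rule takes is not reported here.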

Additional observations from a re-analysis of the deposited data

How the results depend on the processing

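In the alternatives tried, 0 members had a Tle4cKO gene-end summit. Only the 2 kb window and the transcription starts could have raised this count. The other gene-end settings used fewer Tle4cKO summits, a narrower window or the same Tle4cKO list, so there the 0 was fixed. With 0 members marked, each Tle4cKO gene-end difference is the share of all genes with its sign reversed. The members' share of genes with a summit stayed below that of all genes in Tle4cKO and above it in WT. The WT gene-end count (15) was 9 at a score of at least 5 and 4 with a WT list of 2350 summits. The difference between members and all genes in Tle4cKO at gene ends (-6.19 percentage points) ran from -6.92 with transcription starts only, through -6.88 (2 kb), -5.14 (500 bp), -4.82 (score of at least 3) and -4.07 (summits at the ends of 1 gene), to -1.97 (score of at least 5). The WT difference (13.1) ran from 2.01 with a WT list of 2350 summits to 23.5 with starts only. Within 10 kb, the counts of 3 in Tle4cKO and of 3 in both lists were each 1 with a window of 5 kb and with summits in the gene or at its ends. That gene was Batf. The counts were also 1 with scores of at least 3 or 5, but there the gene was Nr4a1, whose Tle4cKO summit lay 192 bp from Atg101. Of the 24 in WT, 12 were left at a score of at least 5 and 7 in the WT list of 2350 summits. The 3 summits with a partner in each list became 1 at a score of at least 3. These settings use fewer summits or other windows. Restricting the comparison to genes under 10 kb, and gene-end summits to those at the end of 1 gene, was chosen after seeing the data. No paired analysis was possible because each genotype has 1 library, and for the same reason no replicate could be left out. Unknown depth limits all statements on missing summits.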

Other observations

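For the 18 members without a summit within 10 kb, the nearest Tle4cKO summits were 49361 to 958479 bp away (median 109359 bp) and the nearest WT summits 11827 to 184505 bp (median 29140 bp). At 4 of them the nearest summits of the lists lay at nearly the same distance: Fosb (49361 bp in Tle4cKO and 49552 bp in WT), Maf (53068 and 52817 bp), Dusp5 (58520 and 58334 bp) and Klf2 (100291 and 100195 bp). These 4 were picked after their values had been seen.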
